A study of Homo sapiens with 12 samples.

Results

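The cytosolic ribosomal proteins are the proteins of the small (40S) and large (60S) subunits of the ribosome outside mitochondria. They were chosen by symbol in the platform annotation (RPS and RPL genes, the RPLP stalk proteins and RPSA) and each was measured by its probe set with 1 gene symbol and the highest mean log2 signal. This gave 52 genes of the 19775 with such a probe set, 20 of the 40S and 32 of the 60S subunit, and all 52 were among the 11548 genes that passed the filter on low signal. The annotation held 67 such genes, and 15 of them, with RPL5, RPL10, RPS27A, RPSA and RPLP0 among them, were not measured here because each of their probe sets listed several symbols.

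RNA came from Z-138 and Maver-1, 2 established lines of human mantle cell lymphoma, a tumour of B cells. The labels give a TRAF2 nonsense mutation for Z-138 and a TRAF3 deletion for Maver-1. Every culture of either line, controls included, was kept in 0.5 ug/ml puromycin to hold a hairpin that doxycycline switches on: a non-targeting control (NTC), NIKsh#1 or NIKsh#2, the last 2 against MAP3K14, which encodes the NF-kB inducing kinase NIK. Each of the 6 cultures was grown for 7 days with 0 and with 100 ng/ml doxycycline and gave 1 array per dose, 12 arrays in all. The 8 groups were thus NTC without doxycycline (1 array per line), NTC with doxycycline (1 per line), NIKsh without (2 per line, 1 per hairpin) and NIKsh with doxycycline (2 per line). The 2 hairpins stood as the replicates of a knockdown group, so the p-values speak only of the spread among these cultures, and the small number of arrays limits how precise each value is.

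Ribosomal proteins are made in near equal numbers, because each ribosome carries a single copy of almost all of them, the acidic stalk proteins being the exception. Their messenger RNAs are among the most abundant and stable in growing cells. They belong to the TOP mRNAs, whose 5' end is a terminal oligopyrimidine tract of cytosine and thymine (uracil in the RNA) through which LARP1 and the mTORC1 kinase set how much is translated.

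The start of transcription is shown for 8 of the genes that the results below turn on, because a pyrimidine tract there, which the choice by symbol did not use, is a feature of most ribosomal protein genes; RPL32 is shown as one without a long run. Each window is 30 bases of the coding strand around the start annotated by RefSeq (GRCh38.p14), 5' to 3', and capitals mark the longest run of C and T that overlaps the 5 bases on either side of that start.
RPS24: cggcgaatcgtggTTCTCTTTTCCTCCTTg
RPS28: tccccgaagcacgtgaCTCCTCTCCgccag
RPS12: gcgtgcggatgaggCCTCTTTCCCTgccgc
RPL29: caccgcagCCCCTTTCTCTTCCggttctag
RPL14: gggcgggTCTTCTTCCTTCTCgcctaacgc
RPS9: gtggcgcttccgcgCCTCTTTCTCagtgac
RPS3: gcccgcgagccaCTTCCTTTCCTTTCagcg
RPL32: gggttacgacccatcagCCCTTgcgcgcca
These windows are chr10:78033848-78033877 (plus strand) for RPS24, chr19:8321481-8321510 (plus) for RPS28, chr6:132814554-132814583 (plus) for RPS12 and chr3:51995881-51995910 (minus) for RPL29. They are chr3:40457324-40457353 (plus) for RPL14, chr19:54200843-54200872 (plus) for RPS9, chr11:75399503-75399532 (plus) for RPS3 and chr3:12841551-12841580 (minus) for RPL32. The run was 16 bases long in RPS24, 14 in RPL29, RPL14 and RPS3, 11 in RPS12, 10 in RPS9, 9 in RPS28 and 5 in RPL32.

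A run of at least 8 C or T overlapping the start was common among the ribosomal protein genes and other TOP mRNAs. It was uncommon in the other lists and over all starts. Of the 52 genes 46 were in the promoter table, with 53 annotated starts, and 39 of these starts (73.6%, in 37 genes) held such a run. The same run was at 11 of 20 starts (55%) of a list of translation factors and other TOP mRNAs, at 7 of 85 (8.24%) of mitochondrial ribosomal protein genes, at 5 of 51 (9.8%) of proteasome genes and at 4042 of all 35116 starts (11.5%). On the opposite strand, as a run of A and G, 0 of the 53 starts held it against 8.67% of all starts. A match describes letters in the window, not a measured start site, and a missing match says only that these letters were not in the window used.

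The ribosomal protein probe sets chosen, all but that of RPL36A, were among the brightest on every array, and varied little. Taking the brightest probe set of each gene favours such a result. Of the 59 other probe sets of these genes, 27 had a mean signal of at least 1000. Without RPL36A, the other 51 lay between 2133.9 and 7122.9 on the MAS5 signal scale, at or above the 98.34th percentile of each array, whose brightest probe set reached 8301.6 at most. Their SD over the 12 arrays had a median of 0.136 on the log2 scale (0.078 to 0.353), beside 0.34 for all genes tested. The smallest SDs were those of RPL7 (0.078), RPL27 (0.093) and RPS16 (0.094), and the largest of the 51 those of RPL29 (0.35) and RPL32 (0.27). RPL41, a very short basic peptide of the 60S subunit, had 5519.1 to 6915.9, RPS23, a core protein of the decoding centre, had 5390.1 to 6677.6, and RPL38 had 4742.9 to 7122.9. RPS28 (2273.1 to 3769.7) and RPS9 (2390.6 to 3666.1) had the lowest mean signals of the 51. Probe sets differ in how strongly they bind, so these levels do not rank the mRNAs. Ribosomal protein genes also have many processed pseudogenes with nearly the same sequence, and 42 of the 52 probe sets carried the endings that mark possible cross-reaction with other transcripts (_s_at or _x_at), so their signals may include copies of the gene.

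RPL36A, a small zinc-binding protein of the 60S subunit, stood apart: the only probe set that lists it alone had a mean signal of 17.87, between 10.2 and 33.5 over the arrays, which is near background. Its values are kept in every count but the changes below are described mainly by the other 51.

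On the arrays as a whole, the median signal ran from 10.6 to 14.1 and the 98th percentile from 1929.6 to 2172. MAP3K14 itself changed by -0.68, -0.08, -0.44 and -0.49 (log2) in the NIKsh cultures in the order Z-138 #1, Z-138 #2, Maver-1 #1 and Maver-1 #2, and by 0.24 and 0.76 in the Z-138 and Maver-1 NTC cultures, with a mean NIKsh change of -0.42 ± 0.18 (limma SE, adjusted p = 0.529). All 6 measured B cell and mantle cell lymphoma markers (CD79A, CD79B, MS4A1, PAX5, CCND1, SOX11) passed the filter. Of 10 measured markers of other cells 4 passed: NKG7 (6.9 to 22), LYZ (3.1 to 25.3), EPCAM (1.3 to 314.4) and PECAM1 (44.8 to 929.1). CD3D, CD3E, CD2, CD14, COL1A2 and VWF had a median of 5.1 or less.

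The first comparison asked whether ribosomal protein mRNAs changed when a hairpin against MAP3K14 was switched on. In limma at an adjusted p under 0.05, 0 of the 52 genes passed, in a comparison that called 0.0433% of all genes tested, all of them lower. At an unadjusted p under 0.05 there were 4 of the 52 and 1037 of all genes. The mean change over the 4 NIKsh cultures lay between -0.09 and 0.13 (log2) for the 51 genes, with standard errors of 0.045 to 0.12, and was above 0 for 45 of the 52. The median of the 52 was 0.06, beside 0.01 for all genes tested, but it was -0.02 when arrays were centred on their medians and 0.0063 after quantile normalization. It was 0.025 without Z-138 NIKsh#1, 0.028 without Z-138 NIKsh#2 and 0.11 without Maver-1 NIKsh#1.

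In the same model doxycycline had 0 calls among the 52 in the NTC cultures, where 0.0% of all genes passed and 0 of the 52 and 387 of all genes had an unadjusted p under 0.05. The median NTC change was 0.09 (50 of 52 above 0, all genes 0.03), 0.14 with arrays centred on their medians and 0.017 after quantile normalization. The NIKsh change minus the NTC change, the direct comparison of the hairpins, had 0 calls (0.0% of all genes; 0 of the 52 and 627 of all genes at an unadjusted p under 0.05), a median of -0.03 (all genes -0.03) and a smallest adjusted p of 0.884 among the 52. Centring moved that median to -0.16. The NTC median rested on the Z-138 culture: it was -0.04 from Maver-1 alone, and without Z-138 NTC the median of the difference turned to 0.10.

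A rise in all 4 NIKsh cultures was seen in 5 genes (9.95% of all genes tested were higher in all 4), and a fall in all 4 in 0 (8.29% of all genes). RPL27A, a 60S protein, went from 5106.1 to 5848.5 in Z-138 NIKsh#1 and from 4435.4 to 4748.1 in NIKsh#2, and from 4456.2 to 4644.6 and 4401.4 to 4946.6 in the same Maver-1 cultures. The NTC pairs read 4544.7 and 4899 (Z-138) and 4565.1 and 4596.6 (Maver-1). The levels with and without doxycycline overlapped, and the mean NIKsh change was 0.13 ± 0.045 (limma, adjusted p = 0.409).

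RPS27, a zinc finger protein of the 40S subunit, went from 5410.7 to 6222.4 and 5343.1 to 5545 in the NIKsh#1 and NIKsh#2 cultures of Z-138 and from 4602.1 to 5145.2 and 4564.4 to 4814.4 in those of Maver-1. The NTC pairs read 4920 and 5287.1 (Z-138) and 5034.4 and 4865.6 (Maver-1). It was higher with doxycycline in each culture but the last, by 0.12 ± 0.046 in the NIKsh cultures (limma, adjusted p = 0.45). RPL37A (0.08), RPS21 (0.06) and the dim RPL36A (0.57) were the other 3 genes, and the RPS21 mean was -0.01 with arrays centred on their medians. Another bright probe set of RPL37A, at a mean signal of 4301.56, rose in both Z-138 NIKsh cultures. It changed by -0.14 and -0.19 in NIKsh#1 and NIKsh#2 of Maver-1. The RPL36A values rested on signals of 10.2 and 18.8 without and 29.4 and 33.5 with doxycycline in Z-138.

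In the NTC cultures the largest changes that went up in both lines were those of RPL32 (0.23), RPL31 (0.16), RPS12 (0.16) and RPL19 (0.15), each with an adjusted p of 0.895 in limma. RPL31, RPS12 and RPL19 changed by 0.31, 0.28 and 0.27 in Z-138 and by 0.01, 0.04 and 0.04 in Maver-1. The other probe sets of RPL31, at mean signals of 66.84 and 409.69, changed by -1.11 and -0.36 in Z-138 NTC and by 0.24 and -0.06 in Maver-1 NTC. Averaged over all probe sets of the gene, the chosen one included, the NTC change was -0.16. It was -0.43 for the dimmest, the only one without a cross-reaction ending.

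With doxycycline, on the probe sets chosen and the scaling as deposited, the median of the genes was above 0 in the 3 Z-138 cultures and near or below 0 in the 3 Maver-1 cultures. In Z-138 the median of the 52 genes was 0.21 in NTC, 0.16 in NIKsh#1 and 0.16 in NIKsh#2, with 47, 51 and 49 genes above 0. In Maver-1 it was -0.04 in NTC, -0.11 in NIKsh#1 and 0.01 in NIKsh#2, with 20, 7 and 31 genes above 0. For all genes tested the medians were 0.07, -0.01 and 0.07 in Z-138 and -0.02, 0.01 and -0.03 in Maver-1. Higher in all 3 Z-138 cultures were 45 of the 52, where 19.7% of all genes were, the others being RPL8, RPL14, RPL18, RPL29, RPL36A, RPS9 and RPS14, and lower in all 3 Maver-1 cultures were 12, where 16.7% of all genes were.

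**Figure D1:**
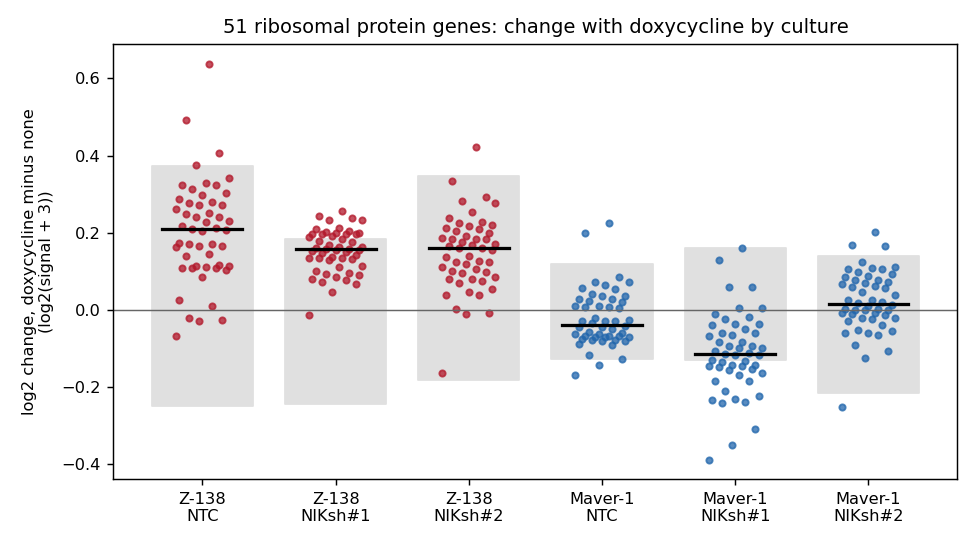
Each point is the log2 change with doxycycline of 1 of 51 ribosomal protein genes (RPL36A is not drawn), by culture; black lines are the medians of all 52 and grey bands the interquartile range of all genes tested. The points stay close together in each culture and lie above 0 in most cases in the 3 Z-138 cultures, with medians from 0.16 to 0.21.

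Within a culture the genes moved as a narrow group. In the order NTC, NIKsh#1 and NIKsh#2, their interquartile range was 0.16, 0.071 and 0.12 in Z-138, where that of all genes was 0.62, 0.43 and 0.53. In Maver-1 it was 0.094, 0.11 and 0.098, where that of all genes was 0.25, 0.29 and 0.36. Genes of equal signal were not set beside them. Both subunits had such medians: the medians of the 20 genes of the 40S subunit were 0.24, 0.15 and 0.17 in Z-138 and -0.06, -0.14 and -0.0008 in Maver-1, and those of the 32 genes of the 60S subunit were 0.19, 0.16 and 0.14 and -0.01, -0.10 and 0.02. Among these, the stalk proteins RPLP1 and RPLP2, which recruit translation factors to the ribosome, changed by 0.17 and 0.11 in Z-138 NTC, by 0.21 and 0.16 in NIKsh#1, and by 0.08 and 0.10 in NIKsh#2. In Maver-1 RPLP1 changed by 0.0047, -0.11 and 0.06 and RPLP2 by 0.02, -0.04 and 0.03.

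These medians depended on how the arrays were scaled and on which probe sets were read. After quantile normalization they were -0.0008, 0.03 and 0.03 in Z-138 and 0.03, -0.07 and 0.05 in Maver-1, and 16 of the 52 genes (19.3% of all genes) stayed above 0 in all 3 Z-138 cultures. With arrays centred on their medians they were 0.37, 0.02 and 0.14 in Z-138 and -0.10, -0.10 and -0.14 in Maver-1, while the medians of all genes moved to 0.23, -0.15 and 0.06 and to -0.07, 0.02 and -0.18. Under that centring 31 of the 52 genes (14.1% of all genes) were above 0 in all 3 Z-138 cultures. Set against the median of all genes, the Z-138 medians of the 52 were higher both as deposited and after centring, but not in NTC and NIKsh#2 after quantile normalization.

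On probe sets without the cross-reaction endings, which 27 of the genes had above the filter, the medians were 0.13, 0.19 and 0.09 in Z-138 and 0.04, -0.09 and 0.14 in Maver-1, with 15, 24 and 15 and with 16, 7 and 23 of the 27 above 0. Maver-1 NIKsh#2 then lay above both Z-138 NTC and Z-138 NIKsh#2, so the order of the lines did not hold there. With the mean over all probe sets of a gene the medians were 0.15, 0.17 and 0.13 in Z-138 and 0.0049, -0.09 and 0.07 in Maver-1.

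Other features of the arrays moved with these medians. The ACTB 3' signal divided by its 5' signal, a measure of RNA and amplification quality, moved the same way as the median of the 52 in 6 of 6 cultures, from 2.33 to 6.34, 2.86 to 4.62 and 2.92 to 5.09 in Z-138 and from 6.88 to 4.43, 4.68 to 4.32 and 3.66 to 3.8 in Maver-1. The GAPDH ratio did so in 5 of 6, falling from 1.54 to 1.42 in Maver-1 NIKsh#2. The 98th percentile of signal, above which these genes lie, moved the same way in 5 of 6. The share of an array's summed signal held by the 52 genes went from 2.01 to 2.25, 2.05 to 2.24 and 1.9 to 2.07 percent in Z-138 and from 1.88 to 1.87, 1.89 to 1.77 and 1.96 to 2 percent in Maver-1. The part of RNA quality and of the brightest signals in the result was not tested, and because each array holds RNA from a whole culture, fewer cells of a kind and less RNA per cell cannot be told apart.

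Other bright probe sets of the same genes had similar medians, and dimmer ones did not. The 27 other probe sets with a mean signal of at least 1000, which belong to 18 of the genes, had medians of 0.23, 0.15 and 0.16 in Z-138 and -0.04, -0.10 and 0.01 in Maver-1, and 23 of them were higher in all 3 Z-138 cultures. The 24 dimmer ones above the filter, of 17 genes, had medians of -0.47, 0.33 and -0.19 in Z-138 and 0.09, -0.04 and 0.23 in Maver-1, with 6, 17 and 7 of the 24 above 0 in Z-138 and 1 higher in all 3 cultures. All of them share the arrays, and so the scaling and the RNA, with the first set. Most of the 27 bright ones also carry a cross-reaction ending, as most of the first set do. Adding 12 genes whose probe sets also list small RNAs of their introns, a choice made after seeing the data, gave medians over 64 genes of 0.21, 0.15 and 0.16 in Z-138 and -0.04, -0.11 and 0.01 in Maver-1.

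Other genes of the translation machinery gave a mixed picture. The 17 translation factors and other TOP mRNAs that passed the filter, of 21 listed and 18 with a probe set of 1 symbol, had medians of 0.23, 0.11 and 0.16 in Z-138 and -0.06, -0.05 and -0.02 in Maver-1. Of these 17, 0 passed in the NIKsh comparison (1 at an unadjusted p under 0.05 in limma). EEF1A1 and EEF2, the elongation factors, changed by 0.18 and 0.14 in Z-138 NIKsh#1 and by 0.26 and 0.20 in NIKsh#2, and PABPC1, the poly(A) binding protein, by 0.23 and 0.27. VIM, a filament gene often counted among TOP mRNAs, had -0.33 and -0.02 there and -0.42 and -0.56 in the Maver-1 NIKsh cultures. The line difference in the NIKsh change was above 0 for all 17 too, and for 6337 of all 11548 genes. For the 17 it had a median of 0.18 and 0 calls in limma (6 at an unadjusted p under 0.05).

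The 75 mitochondrial ribosomal protein genes, whose products work in another compartment, had medians of -0.06, -0.10 and -0.20 in Z-138 and 0.05, -0.06 and -0.02 in Maver-1. The 42 proteasome subunits had 0.20, -0.04 and -0.03 in Z-138 and -0.03, -0.08 and -0.06 in Maver-1. In Z-138 these medians lay on the other side of 0 from those of the 52 genes in each culture but NTC for the proteasome. The paralogs of ribosomal proteins, 8 genes such as RPL22L1 and RPL39L, of which 7 passed the filter, had medians of 0.19, 0.07 and -0.05 in Z-138 and -0.0062, -0.05 and -0.02 in Maver-1. FAU, whose product is cleaved into a ubiquitin-like part and the 40S protein eS30, changed by -0.0067, 0.18 and -0.03 in Z-138 and by 0.16, -0.14 and 0.11 in Maver-1.

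**Figure D2:**
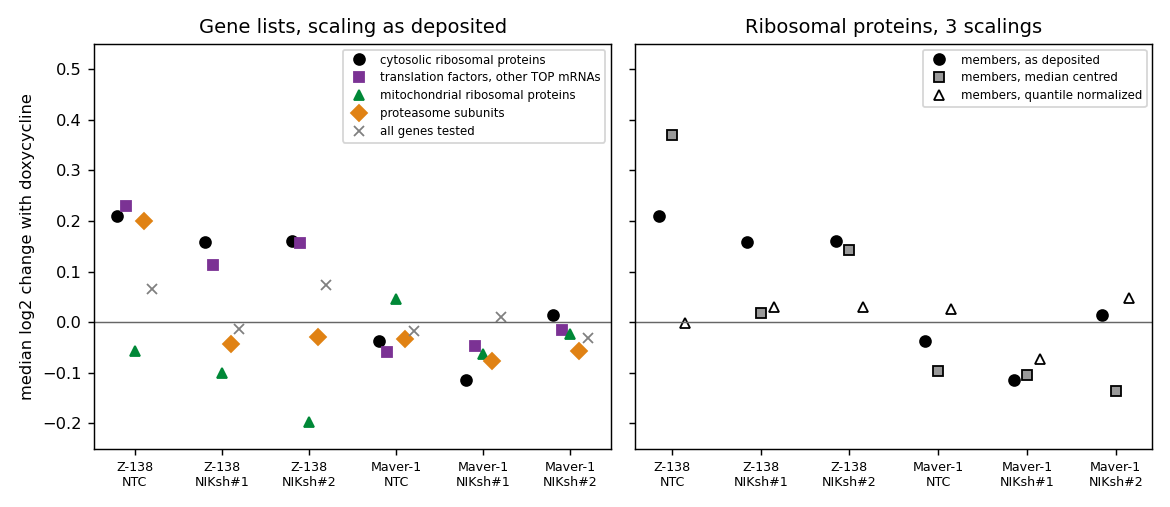
Median log2 change with doxycycline by culture, on the left for 5 gene lists as deposited and on the right for the ribosomal proteins under 3 scalings. The circles of the ribosomal proteins and the squares of the translation factors lie above 0.1 in the 3 Z-138 cultures as deposited, and the triangles on the right, after quantile normalization, lie within 0.08 of 0.

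The next comparison tested whether the NIKsh change differed between Z-138 and Maver-1. The difference was above 0 for 52 of 52 genes, with a median of 0.19 (all genes 0.04), and between 0.0087 and 0.54 for the 51. RPS24 alone passed in limma, in a comparison that called 0.121% of all genes; at an unadjusted p under 0.05 there were 28 of the 52 and 992 (8.59%) of all genes. Both Z-138 NIKsh changes lay above both Maver-1 NIKsh changes in 42 of the 52 (21.8% of all genes), in 15 after quantile normalization (19.8% of all genes) and in 42 with arrays centred on their medians (16.3% of all genes). The median difference was 0.034 after quantile normalization and 0.18 after centring. With 1 culture left out, the count of calls was 0 without Z-138 NTC (0.0779% of all genes called), 3 without Z-138 NIKsh#1 (3.66%) and 10 without Maver-1 NIKsh#2 (0.589%), and the median was 0.27 without the last.

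RPS24, a 40S protein needed for maturation of ribosomal RNA and mutated in some families with Diamond-Blackfan anaemia, went from 4008 to 4713.3 in Z-138 NIKsh#1 and from 3708.1 to 4287 in NIKsh#2. In Maver-1 it went from 4469.2 to 3414 in NIKsh#1 and from 4833.4 to 4059.9 in NIKsh#2. The NTC pairs read 4376.9 and 4737 (Z-138) and 4114.5 and 3860 (Maver-1). It was thus higher with doxycycline in each Z-138 culture and lower in each Maver-1 culture, and the NIKsh changes of 0.23 and 0.21 against -0.39 and -0.25 did not overlap.

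The difference of the RPS24 changes was 0.54 ± 0.077 (limma, adjusted p = 0.0492), just under the threshold. This fit had only 2 residual degrees of freedom, where the other comparisons had 4. Its standard error therefore leaned on the intensity trend, and without that trend it was 0.18 (limma, adjusted p = 0.57). The call was lost in 14 of 19 alternatives, over which the adjusted p ran from 9.18e-06 to 0.835, and it was lost without the Z-138 NTC culture (adjusted p = 0.0524). The difference was 0.38 after quantile normalization (adjusted p = 0.202), and its other probe set, at a mean signal of 411.64 and without a cross-reaction ending, gave -0.27 (adjusted p = 0.793).

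Among the other 40S genes, RPS28, a small protein at the mRNA exit of the subunit, had the largest single change of the 51. It went from 2421.3 to 3769.7 in Z-138 NTC, from 2616 to 2996.6 in NIKsh#1 and from 2273.1 to 3049.5 in NIKsh#2, and in Maver-1 from 2728.5 to 2581.2, 2609 to 2353.4 and 2678.3 to 2695.5. All 3 Z-138 arrays with doxycycline lay above the other 9 arrays. The difference between the lines in the NIKsh cultures was 0.38 ± 0.11 (limma, adjusted p = 0.365), and the largest change, 0.64, was in NTC. The 2 other probe sets of RPS28, at mean signals of 49.72 and 119.11, changed by -1.03 and -0.63 in that culture.

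RPS4X, the X-linked copy of a 40S protein, had a line difference of 0.34 ± 0.077 (limma, adjusted p = 0.266), and RPS7, another 40S protein, one of 0.34 ± 0.08 (adjusted p = 0.273). RPS7 went from 3951.6 to 4942.6, 3951.2 to 4409.5 and 3640.1 to 4192.2 in Z-138 and from 3867.2 to 3685.1, 3817.6 to 3244 and 4142.6 to 3889.8 in Maver-1, so that on this probe set it was higher with doxycycline in each Z-138 culture and lower in each Maver-1 culture. Its other probe set, at a mean signal of 3561.77, changed by -0.04, 0.11 and -0.01 in Z-138 and had a line difference of 0.14, while that of RPS4X had 0.25. RPS6, the substrate of the S6 kinases, changed by 0.26, 0.16 and 0.16 in the NTC, NIKsh#1 and NIKsh#2 cultures of Z-138 and by -0.04, -0.04 and -0.0013 in Maver-1. RPS19, mutated in Diamond-Blackfan anaemia, changed by 0.27, 0.14 and 0.22 in Z-138 and by -0.09, -0.23 and 0.09 in Maver-1. RPS14, the gene of the 5q minus syndrome, stayed between -0.09 and 0.08 in the 6 cultures.

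Among the 60S genes, RPL10A, a protein of the L1 stalk that guides the spent transfer RNA out, had the next smallest adjusted p after RPS24 (0.33 ± 0.067, limma adjusted p = 0.189). It went from 4628.6 to 5864.4, 4524.3 to 5108.2 and 4211.2 to 4899.8 in Z-138 and from 4492.1 to 4139.1, 4401.1 to 3981.5 and 4659.3 to 4272.1 in Maver-1, on this probe set higher with doxycycline in one line and lower in the other. Its other probe set, at a mean signal of 2553.43, changed by 0.11 in Maver-1 NIKsh#2 and had a line difference of 0.17. RPL11, which with RPL5 binds MDM2 when ribosome assembly fails, changed by 0.17, 0.19 and 0.14 in Z-138 and by 0.07, -0.02 and 0.12 in Maver-1. RPL22, which also binds a viral RNA in infected B cells, changed by 0.25, 0.16 and 0.17 in Z-138 and by -0.08, -0.12 and 0.07 in Maver-1. RPL39, which lines the exit tunnel of the nascent chain, changed by 0.30, 0.20 and 0.18 in Z-138 and by -0.17, -0.14 and -0.02 in Maver-1. RPL10A, RPL11, RPL22 and RPL39 did not pass the test of the line difference, in which RPL39 had 0.27 ± 0.071 (limma, adjusted p = 0.31).

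**Figure D3:**
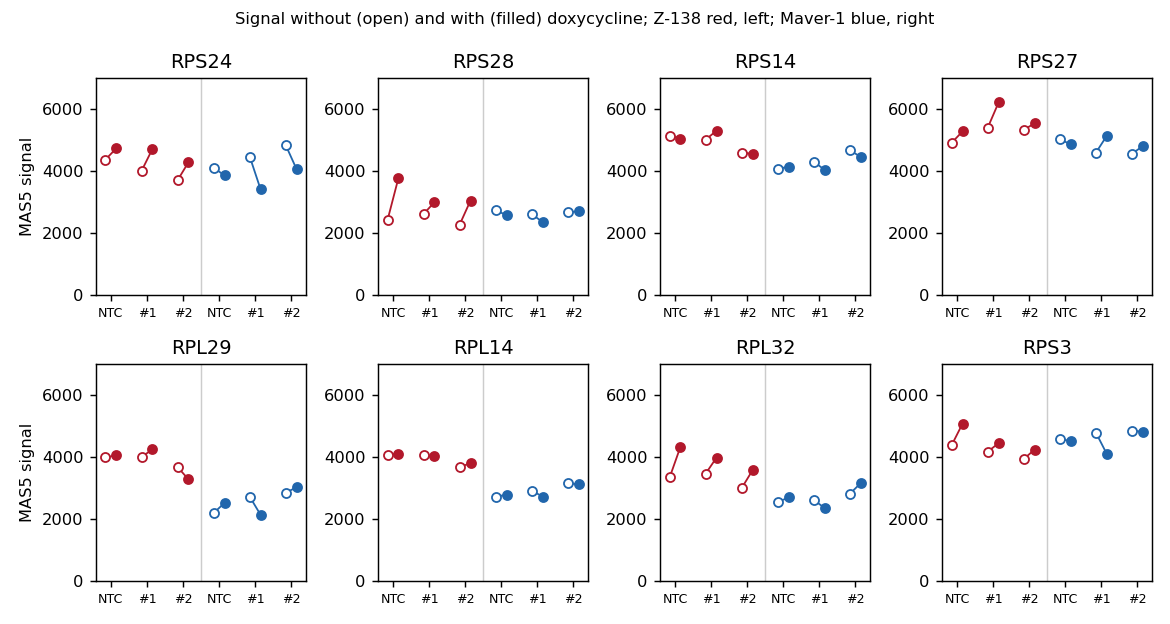
MAS5 signal on each of the 12 arrays for 8 ribosomal protein genes, with lines joining the arrays of a culture without (open) and with (filled) doxycycline. RPS24 goes up in the 3 Z-138 cultures and down in the 3 Maver-1 cultures, RPS28 is highest in Z-138 NTC with doxycycline at 3769.7, and RPL29 and RPL14 lie higher on the 6 Z-138 arrays than on the 6 Maver-1 arrays.

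The last comparison set the untreated lines side by side, 3 cultures each. Without doxycycline the ACTB 3' to 5' ratio was 2.33, 2.86 and 2.92 in the NTC, NIKsh#1 and NIKsh#2 cultures of Z-138. In those of Maver-1 it was 6.88, 4.68 and 3.66, without overlap. The line and this measure of RNA quality thus cannot be told apart here, and its part in the differences was not tested. Of the 52 ribosomal protein genes 13 were higher in Z-138, where 25.5% of all genes tested were, and 2 were higher in Maver-1, where 34.8% of all genes were (limma, adjusted p under 0.05). The median difference, Z-138 minus Maver-1, was 0.04 (36 of 52 above 0), beside -0.08 for all genes. All 3 Z-138 arrays lay above all 3 Maver-1 arrays in 12 of the 52 (27.9% of all genes) and below them in 2 (37.9% of all genes). The genes called higher in Z-138 were so by 0.14 to 0.60 on the log2 scale. With 1 culture left out, the higher calls numbered 8 without Z-138 NTC, 7 without Z-138 NIKsh#1 and 8 without either Maver-1 NTC or Maver-1 NIKsh#1. The lower calls numbered 1 without the NIKsh#2 culture of either line. Of all genes, 60.2% were called either way with all 6 arrays and 54% to 58.8% with 1 culture left out. With arrays centred on their medians the calls were 7 higher and 0 lower, and after quantile normalization 14 higher and 6 lower. In these 2 runs 6544 and 6997 of all genes were called either way.

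RPL29, a small basic protein of the 60S subunit also known for binding heparin, showed the largest difference. Without doxycycline it had 3989.8, 4005.8 and 3679.1 in the NTC, NIKsh#1 and NIKsh#2 cultures of Z-138 and 2192.8, 2720.6 and 2848.1 in those of Maver-1. The groups did not overlap, and the Z-138 mean was 1.5 times that of Maver-1, a log2 difference of 0.60 ± 0.085 (limma, adjusted p = 4.72e-05). Its other probe set, which also carries a cross-reaction ending, gave 0.55.

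RPL14, a 60S protein, had 4080.9, 4059.8 and 3682.2 in Z-138 and 2727, 2917.2 and 3150.6 in Maver-1, again without overlap. The difference was 0.43 ± 0.066 (limma, adjusted p = 8.8e-05), and its other 2 probe sets gave 0.18 and 0.38. RPL32, also of the 60S subunit, had 3343.2, 3470.2 and 3004.2 in Z-138 and 2545.2, 2615.4 and 2817.9 in Maver-1, a difference of 0.30 ± 0.067 (adjusted p = 0.00183). These 3 genes, all on chromosome 3, stayed past the threshold in each alternative run that held them. The differences were 0.48 to 0.67 for RPL29, 0.33 to 0.48 for RPL14 and 0.25 to 0.42 for RPL32. RPL29 and RPL32 have no probe set without a cross-reaction ending, so the run without such probe sets held only RPL14 of the 3.

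The other genes called higher in Z-138 without overlap were RPS9 (0.25), RPL18 (0.25), RPL12 (0.24), RPS12 (0.24), RPL3 (0.17), RPS29 (0.16) and RPL6 (0.14). RPS9 had 3527.8, 3502.6 and 3086.5 in Z-138 and 2617.8, 2827.9 and 3055.5 in Maver-1, so that the lowest Z-138 array was close to the highest of Maver-1, and RPL18 had 5642.8, 5187.1 and 5167 against 4307.3, 4228.8 and 4969.6. RPL12 had 4107.1, 3938.2 and 3603.7 against 3215.6, 3264.6 and 3362, and RPS12 had 5031.1, 5853.8 and 4788.7 against 4401.1, 4268.8 and 4556.1. RPS14 (0.18), RPL8 (0.17) and RPS27 (0.14) passed although their arrays overlapped. The other bright probe set of RPS9 gave 0.29 and a dim one, at a mean signal of 16.92, gave -0.71. For RPS12 and RPS27 the other probe set, at mean signals of 5.24 and 10.3, was under the filter and bears on no direction, although averaging over all probe sets turned both differences (-0.25 and -0.22). For RPL3, RPL6, RPL8, RPS14 and RPS29 the call was lost in 8 or 9 alternatives, and for RPS27 and RPL30 in 11.

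Called higher in Maver-1 were RPS3 and RPL30. RPS3, which lines the channel where mRNA enters the 40S subunit, had 4391.8, 4179.2 and 3944 in Z-138 and 4598.3, 4786.7 and 4853.3 in Maver-1, a difference of -0.19 ± 0.053 (limma, adjusted p = 0.00835). RPL30 had 4310.6, 4493.3 and 3897.2 in Z-138 and 4845.2, 4523.5 and 4685.7 in Maver-1, a difference of -0.15 ± 0.059 (adjusted p = 0.044). Neither overlapped between the lines.

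Because RPL29, RPL14 and RPL32 share a chromosome, each gene was set beside the genes around it, a comparison chosen after the values were seen. For each gene, the median untreated difference of up to 25 nearest tested genes on either side was taken, other ribosomal protein genes left out. Near a chromosome end there were fewer. Around RPL32, RPL14 and RPL29 these medians were 0.63, 0.50 and 0.39, all higher in Z-138 like the genes themselves. Around RPL24 it was 0.41 and around RPL35A, also on chromosome 3 but with only 26 neighbours in all, it was -0.31. RPL24 and RPL35A themselves differed by 0.07 ± 0.055 and 0.03 ± 0.055 and did not pass (limma, adjusted p = 0.288 and 0.674).

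The genes around RPS3 had a median of -1.14 and those around RPL30 of -0.89, both higher in Maver-1 like the genes themselves. Around RPS12 and RPS29 the medians were both 0.43, and around RPS6, which did not pass (0.12 ± 0.051, adjusted p = 0.0516), 0.61. Over the 52 genes, 12 had neighbours higher in Z-138 on the median, and 11 of those 12 were higher there too, with a median of 0.14. The 40 with neighbours lower in Z-138 had a median of 0.02, with 25 above 0. The gene itself lay nearer to 0 than its neighbours' median in 44 of 52 cases. Of the 13 called higher in Z-138, 7 had neighbours higher there and 6 lower, and the 2 called lower had neighbours lower. These neighbour counts were not made for all genes tested, so they do not set ribosomal protein genes apart from others. Copy number was not measured in these data, so its part was not tested.

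For related lists, the counts stand beside shares of all genes of 25.5% higher in Z-138 and 34.8% higher in Maver-1. Of the 7 paralogs, RPL22L1 (0.27, limma adjusted p = 0.0429) and RPL36AL (0.25, adjusted p = 0.00426) were higher in Z-138 and RPL39L, a paralog of RPL39, was higher in Maver-1 (-0.64, adjusted p = 6.32e-05). Among the 17 translation factors and other TOP mRNAs 4 were higher in Z-138 and 1 in Maver-1, with EIF3H (0.45) and EIF3F (0.37), subunits of the initiation factor eIF3, and PABPC1 (-0.45) as the widest apart. Of the 75 mitochondrial ribosomal protein genes 26 were higher in Z-138 and 14 in Maver-1, and of the 42 proteasome subunits 7 and 16.

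**Figure D4:**
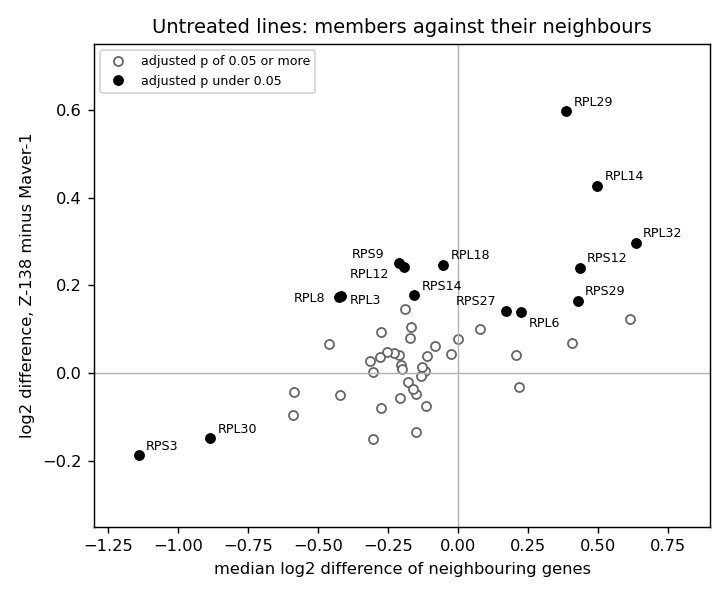
Each point is a ribosomal protein gene (51, without RPL36A): its log2 difference between the untreated lines on the vertical axis against the median difference of up to 50 neighbouring tested genes on the horizontal axis; filled points passed in limma. RPL29, RPL14 and RPL32 sit at the upper right with neighbours at 0.39 to 0.63, RPS3 and RPL30 at the lower left with neighbours at -1.14 and -0.89, and most points span a smaller range vertically than horizontally.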

How the data were processed

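The deposited values are linear signal intensities per probe set, and the authors used MAS5, per the submitters' processing notes; its version is not given in the sources used here. The mean of each array, 2 percent of probe sets trimmed at either end, was 150.02, so the arrays share a scale and no further normalization was applied. Total RNA had been amplified and biotin labelled, per the labels. Of 54675 probe sets 41097 had 1 symbol in the platform annotation, 1801 several and 11777 none. Signals were taken to log2(signal + 3), on which changes of dim genes are understated, and a gene needed a mean signal of 12.55 (the median over arrays of their median signal) to be tested.

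Fits used limma 3.58.1 in R 4.3.3 over 11548 genes, with an intensity trend, two-sided moderated tests and Benjamini-Hochberg adjustment at 0.05; plots used matplotlib 3.10.9 and tables pandas 2.3.3, both in Python 3.11.15. Each culture entered as a fixed block, on the assumption that its cells were split between doses, which the sample titles do not state. As a check of that pairing, deviations of the 2 arrays of a NIKsh culture were correlated over genes, which gave -0.038 (Z-138) and 0.202 (Maver-1). The check thus showed no pairing in Z-138 and a weak one in Maver-1, and fits without the block were among the alternatives. The NIKsh and NTC changes were each taken over both lines, so a difference between the lines adds to their standard errors. The untreated lines were compared on 6 arrays. Tested on simulated data of 11548 genes, the NIKsh fit recovered 82 of 112 changes of log2 size 1 and 86 of 88 of size 2, with 7 false calls, and the untreated fit 63 of 100 and 95 of 100, with 8. No smaller change was simulated, so these counts do not say how well changes of the size seen here are found. The fit of the line difference in the NIKsh change was not simulated.

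Genes were named by fixed counts of the largest changes of 1 sign in all cultures, all genes that passed, the extremes of signal and SD, and a set of well-known members. Members and lists were chosen with earlier results of these data known. Alternatives changed the pseudocount, scaling, filter, probe set choice, trend, block and cultures used. Sequences are from RefSeq's promoter table.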

Additional observations from a re-analysis of the deposited data

Results flagged for a closer look

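RPL12 stood out for 1 culture: its change was -0.16 in Maver-1 NIKsh#1 against 0.13 and 0.14 in the Z-138 and 0.09 in the other Maver-1 NIKsh culture, a gap above Dixon's limit for groups of 4, in 1 of 52 genes looked at in this way. Such a limit is passed by chance in about 5 percent of groups. In Maver-1 NIKsh#1 45 of the 52 genes fell, so a fall there was not particular to RPL12. Its other probe set, at a mean signal of 3302.39, changed by -0.19 there. That probe set changed by 0.10 and 0.22 in Z-138 and 0.10 in the other Maver-1 NIKsh culture, values more spread, and the limit was not applied to it. RPS24 differed between the lines by 0.54 in the NIKsh change, by the limma test of that difference.

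For 15 more genes both Z-138 NIKsh cultures went up and both Maver-1 NIKsh cultures went down, while the limma test of the line difference did not pass: RPS7 (0.34), RPS4X (0.34), RPL10A (0.33), RPL31 (0.32), RPS10 (0.32), RPS15A (0.28), RPL39 (0.27), RPL34 (0.26), RPS16 (0.22), RPS3 (0.21), RPS25 (0.19), RPS6 (0.18), RPL3 (0.16), RPS29 (0.16) and RPL41 (0.14). How many of all genes show this pattern of signs was not counted. A wider pattern, both Z-138 NIKsh changes above both Maver-1 NIKsh changes, was seen in 42 of the 52 and 21.8% of all genes. Some falls in Maver-1 NIKsh#2 were near 0, with -0.0004 for RPS15A, -0.0006 for RPL41 and -0.0013 for RPS6. Other bright probe sets rose in that culture for RPS6, RPS16 and RPL10A and fell for RPS4X, RPS7 and RPS10. After quantile normalization the median line difference of the 52 genes was 0.034.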

How the results depend on the processing

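Of the 52 genes, 0 passed in the NIKsh, NTC and NIKsh minus NTC comparisons under each alternative run, the fit with no replicate block included; the median of the last turned from -0.03 to between -0.15 and 0.10 when 1 culture was left out. The 1 call in the line difference became 0 with a pseudocount of 1 or 16, centring on array medians, quantile normalization, no filter, a filter at the 75th percentile, the mean over probe sets, no cross-reacting probe sets, the first of several symbols, added small RNA host probe sets (chosen after seeing the data), no trend, no replicate block and a random replicate block, and 0 to 10 with 1 culture left out (0 without Z-138 NTC, 3 without Z-138 NIKsh#1, 10 without Maver-1 NIKsh#2). Its median was 0.034 after quantile normalization and 0.13 to 0.27 with 1 culture left out. In the untreated lines the genes called higher and lower in Z-138 were 7 and 0 after centring, 7 and 1 with no filter, 3 and 0 with no trend, 7 and 1 with the construct as a replicate block, and 29 and 0 on all 12 arrays (median 0.15), whose paired arrays of a culture are not independent. The lower calls were 6 after quantile normalization, 1 of 51 genes with the higher filter, 6 with the mean over probe sets and 5 of 27 with no cross-reacting ones. With 1 culture left out the calls were 7 to 18 higher and 1 to 3 lower, where 54% to 58.8% of all genes were called either way. All genes called either way were 6544 after centring, 6500 with no trend, 6561 with the construct block and 6794 on all 12 arrays. They were 6997 after quantile normalization, 7126 with no filter and 4770 with the higher filter. With the mean over probe sets they were 6310, and with no cross-reacting ones 5421. The filter and the choice of probe sets also set how many genes a run tested. Reversed values were those of RPS21 with centring (-0.0104, NIKsh), of RPL31 with the mean over probe sets (-0.16, NTC), of RPS12 (-0.25), RPS27 (-0.22) and RPS9 (-0.0585) likewise in the untreated lines, and with no cross-reacting probe sets of RPL31 (-0.43, NTC), RPS24 (-0.27, line difference) and RPS9 (-0.71, untreated). Causes were not tested. The number of arrays and near-identical gene copies limit all values, and bright probe sets may understate changes.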
